A study of Homo sapiens with 6 samples.

Results

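The squamous lineage transcription factors described here are TP63, SOX2, PAX9, TFAP2A, TFAP2C, KLF5, GRHL2, KLF4, OVOL1 and ZNF750. They were chosen by name, with earlier results of these data known. Each of the 10 had 1 row among the 27887 gene rows of the deposited expression table. RNA-seq was performed on KYSE450, a commonly used cell line from a human squamous carcinoma of the esophagus, in 3 shHMGB2 libraries and 3 mock libraries. The shHMGB2 cells (genotype HMGB2 knockdown) had been infected with a virus carrying a short hairpin RNA against HMGB2, and the mock cells (genotype WT) with a mock virus. All cells grew in RPMI1640 with fetal bovine serum. The labels call replicates 2 and 3 of each group repeat samples and do not say whether they came from separate cultures or from 1 infection, so p-values reflect spread among the 6 libraries only, and that spread may be technical. What the mock virus carried and the sequence of the hairpin are not given in the sources used here, and a single hairpin label and a single line limit what the comparison stands for.

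Stratified squamous epithelium is kept by a small set of transcription factors that work together. TP63 encodes p63, a DNA-binding factor that keeps basal cells in their lineage, and SOX2, an HMG-box factor, cooperates with p63 in squamous cancers and is often amplified with it. PAX9 is a paired-box factor of the esophageal lining, TFAP2A and TFAP2C encode AP-2 factors of surface ectoderm, and KLF5 is a zinc finger factor of dividing basal cells. GRHL2, a grainyhead factor, maintains epithelial junctions. KLF4, OVOL1 and ZNF750 are zinc finger factors that turn basal cells towards terminal differentiation.

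HMGB2, the target of the hairpin, had 22.1, 24.5 and 27.8 FPKM in the shHMGB2 libraries and 115.8, 111.4 and 108.6 FPKM in the mock libraries. FPKM are fragments scaled by transcript length and library total, a level corrected for gene length and library size. The shHMGB2 mean was 22.1% of the mock mean, and each shHMGB2 library lay below each mock library. Summed FPKM ranged from 740684 to 829437 over the 6 libraries. The table holds no read counts per library, so the depth of each library was not used and counting error was not separated from other spread. All 14 listed squamous markers exceeded a mean of 1 FPKM, led by the basal keratin KRT5 at 3440 FPKM. The list includes the factor TP63 and the epithelial genes CDH1 and EPCAM, which do not by themselves define squamous cells. Of the 9 fibroblast, 5 leukocyte and 7 endothelial markers in the table, 1 each reached that level (LUM, CD68 and ERG).

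Expression was compared on log2(FPKM + 1) in the 13409 genes whose mean reached 1 FPKM, using limma with Benjamini-Hochberg adjustment over all of them and an adjusted p threshold of 0.05. All 10 factors were above this minimum in both groups. In bulk RNA, fewer cells expressing a gene and less RNA per cell cannot be told apart.

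TFAP2C fell in shHMGB2 cells, OVOL1 fell by less, SOX2 rose, and the remaining 7 factors did not pass the threshold. TFAP2C was at 50.7% of its mock mean, OVOL1 at 64.0% and SOX2 at 135% of theirs. Thus 3 of the 10 factors passed, 1 higher and 2 lower, against 6.75% of all genes tested in either direction, 3.3% as higher and 3.45% as lower. The factors were called at a higher share than all genes, a count that rests on 3 genes. They were chosen with earlier results of these data known, so this share and those below are not a test of them. Over all genes, 442 were higher and 463 lower, and under median-of-ratios scaling 349 were higher and 571 lower. With mock replicate 2 or shHMGB2 replicate 1, 2 or 3 left out, 97 to 123 were higher and 193 to 209 lower. Of the 10 log2 fold changes, 8 were negative and 2 positive, with a median of -0.18, while the median over all genes tested was 0.04. Unadjusted p was under 0.05 for 7 factors, 2 higher and 5 lower, as for 27.9% of all genes. The groups did not overlap for 8 factors, 2 higher and 6 lower. Across all genes this held for 35.6%, with 21.6% higher and 14% lower.

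**Figure D1:**
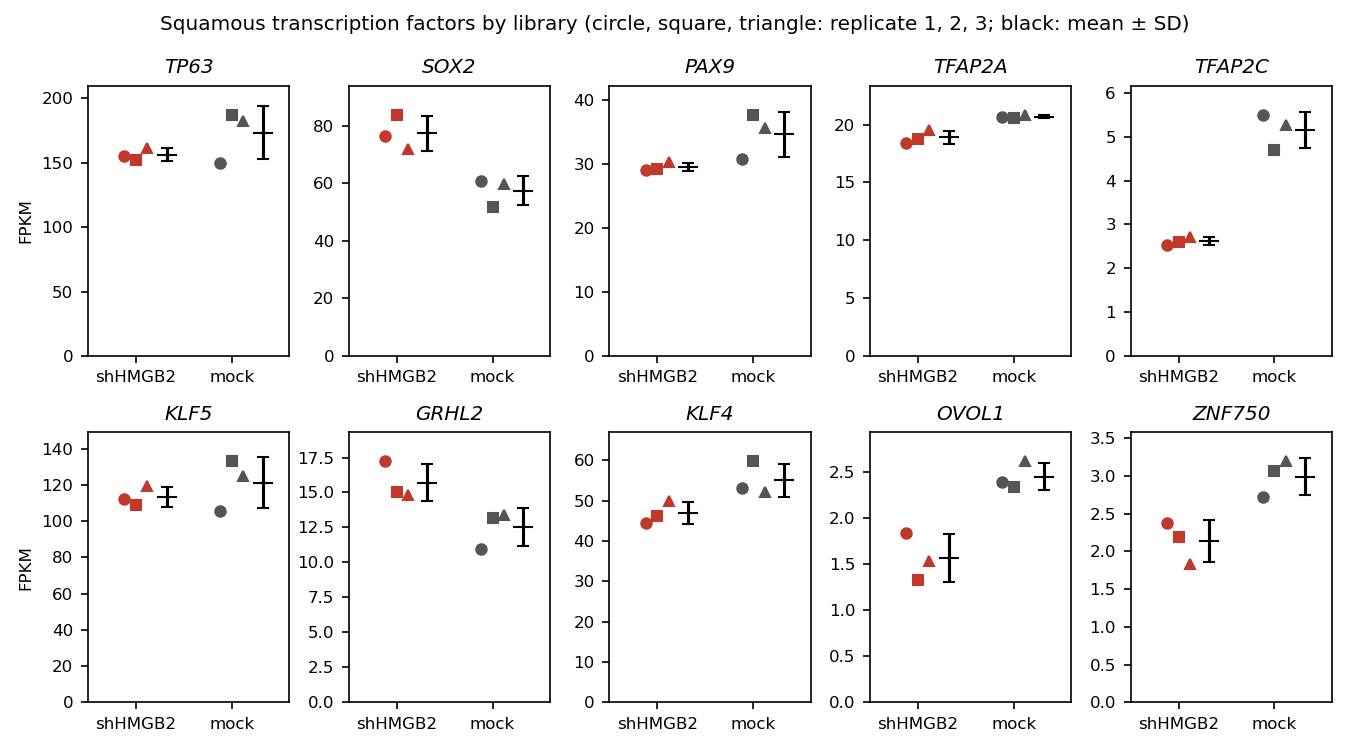
FPKM of each factor in each library (y axis, from 0), with shHMGB2 libraries in red and mock libraries in grey; circles, squares and triangles are replicates 1, 2 and 3, and black bars give the mean ± SD of 3 libraries. The TFAP2C libraries sit between 2.53 and 2.71 FPKM in shHMGB2 and between 4.70 and 5.50 FPKM in mock, whereas TP63 and KLF5 overlap because mock replicate 1 is low.

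The order of the factors by level was the same in both groups. TP63 was the highest, with 156 ± 4.88 FPKM in shHMGB2 and 173 ± 20.5 FPKM in mock cells (SD, n = 3 each), at percentile 95.6 of the tested genes by mean level. KLF5, SOX2, KLF4, PAX9, TFAP2A, GRHL2, TFAP2C, ZNF750 and OVOL1 followed in that order, down to OVOL1 at percentile 11.96. Neighbours in this order had separate ranges with 2 exceptions. ZNF750 and OVOL1 overlapped in shHMGB2 but not in mock, and SOX2 and KLF4 were apart in shHMGB2 but overlapped in mock. The mean of SOX2 over that of KLF4 was 1.65 in shHMGB2 and 1.04 in mock.

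SOX2 was the basal factor that rose. It lies on chromosome 3 at 181711925 to 181714436 (GRCh38) as a single GENCODE transcript. Its promoter window is shown because SOX2 is the called factor for which a RefSeq promoter sequence was used here. The window covers chr3:181711675-181711974 on the plus strand (GRCh38.p14), 250 bases before to 50 after the start site, and capitals mark matches to a SOX motif, an AP-2 motif and a GC box.
SOX2: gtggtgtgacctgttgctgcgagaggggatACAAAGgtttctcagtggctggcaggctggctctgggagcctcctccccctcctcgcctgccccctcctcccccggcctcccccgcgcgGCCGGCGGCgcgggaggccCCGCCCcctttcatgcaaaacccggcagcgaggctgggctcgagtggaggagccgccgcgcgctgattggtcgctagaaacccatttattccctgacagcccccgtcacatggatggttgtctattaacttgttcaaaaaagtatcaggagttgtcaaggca
From left to right the capitals are ACAAAG, then GCCNNNGGC, then GGGCGG read on the opposite strand. Motifs were searched on both strands, and ACAAAG occurred in 16.1%, GCCNNNGGC in 23.2% and GGGCGG in 45.0% of 35116 promoter windows of the same length, so these matches are common. The matches describe the letters and were not tested for binding. RefSeq windows were read for 6 of the factors (TP63, SOX2, PAX9, TFAP2A, KLF5 and KLF4), 9 windows in all because PAX9, TFAP2A and KLF5 have 2 starts each. The AP-2 motif was in 2 of the 9, those of SOX2 and KLF4, the GC box in 4, CCACCC, the CACCC box bound by KLF factors, in 2, and the grainyhead motif AACCGGTT and the OVO-like motif CCGTTA in 0. Over all windows CCACCC was in 34.3%, AACCGGTT in 0.134% and CCGTTA in 3.07%.

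SOX2 had 76.3, 83.7 and 71.9 FPKM in the shHMGB2 libraries and 60.8, 51.8 and 59.7 FPKM in the mock libraries. Every shHMGB2 library was above every mock library. The log2 fold change was 0.42 (SE 0.084, 95% interval 0.23 to 0.62, adjusted p = 0.0307 by limma). The call was lost when mock replicate 2 was left out (adjusted p = 0.0957 by limma) or shHMGB2 replicate 1, 2 or 3 was (adjusted p = 0.0984, 0.108 and 0.0609 by limma), although the log2 fold change stayed between 0.35 and 0.47. SOX2 lies inside the noncoding gene SOX2-OT on the same strand, which had 0.460 ± 0.0361 FPKM in shHMGB2 and 0.270 ± 0.0954 FPKM in mock (SD, n = 3 each) and was below the minimum level for testing. No exons of the SOX2 and SOX2-OT annotations overlap.

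TP63, the master regulator of the basal layer, had 155.4, 151.9 and 161.5 FPKM in the shHMGB2 libraries and 149.7, 187.2 and 182.9 FPKM in the mock libraries. Mock replicate 1 lay below all shHMGB2 libraries and the other mock libraries lay above them. Its log2 fold change was -0.14 (SE 0.090, 95% interval -0.35 to 0.07, adjusted p = 0.342 by limma). Without mock replicate 1 it was -0.24 and passed (adjusted p = 0.0445 by limma). TP63 spans chromosome 3 from 189596746 to 189897276 (GRCh38) and has 12 coding GENCODE transcripts from 6 start positions spread over 158 kb. The distal starts give the long TA forms and the internal starts the ΔN forms usual in squamous cells, and the single gene row does not separate them.

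PAX9 had 29.2, 29.2 and 30.3 FPKM in the shHMGB2 libraries and 30.8, 37.7 and 35.6 FPKM in the mock libraries. The groups did not overlap, but mock replicate 1 lay close to the shHMGB2 libraries. The log2 fold change was -0.22 (SE 0.080, adjusted p = 0.129 by limma), and without mock replicate 1 it was -0.30 and passed (adjusted p = 0.031 by limma). Exons of PAX9 overlap those of SLC25A21 on the opposite strand, and the sources used here do not say whether counting used strand. SLC25A21 had 2.35 ± 0.490 FPKM in shHMGB2 and 2.33 ± 0.474 FPKM in mock (SD, n = 3 each).

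Of the AP-2 genes TFAP2C fell and TFAP2A did not pass; the difference between them was read from their ratio. TFAP2C, on chromosome 20 at 56629306 to 56639283 (GRCh38), had 2.53, 2.61 and 2.71 FPKM in the shHMGB2 libraries and 5.50, 4.70 and 5.27 FPKM in the mock libraries. All shHMGB2 values lay far below the mock range. This gave a log2 fold change of -0.77 (SE 0.080, 95% interval -0.95 to -0.58, adjusted p = 0.00289 by limma). It passed with any 1 library left out (adjusted p by limma from 0.00789 to 0.0218). In the authors' deposited table TFAP2C was the 1 factor marked as changed, with an adjusted p of 5.38e-09. The log2 fold change there was -1.05, taken with no pseudocount and so on another scale than the limma value.

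TFAP2A, the more abundant AP-2 gene, had 18.4, 18.8 and 19.5 FPKM in the shHMGB2 libraries and 20.7, 20.6 and 20.8 FPKM in the mock libraries. The shHMGB2 libraries were all lower, and the mock libraries lay close together, with an SD of 0.146 FPKM (n = 3). The fitted log2 fold change was -0.13 (SE 0.054, 95% interval -0.25 to 0.001, adjusted p = 0.183 by limma). The ratio of TFAP2A to TFAP2C was 7.28, 7.18 and 7.20 in the shHMGB2 libraries and 3.76, 4.37 and 3.95 in the mock libraries. This ratio was thus higher in every shHMGB2 library. The sum of both genes was 21.5 ± 0.652 FPKM in shHMGB2 and 25.8 ± 0.515 FPKM in mock (SD, n = 3 each). An exact 2-sided permutation test gave p = 0.1 for the ratio and for the sum, the smallest that 3 against 3 libraries allow, and 0.12 after Benjamini-Hochberg adjustment over the 6 ratios and sums computed. TFAP2A has 2 antisense genes whose exons overlap it, TFAP2A-AS1 and TFAP2A-AS2, each with a mean under 1 FPKM.

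**Figure D2:**
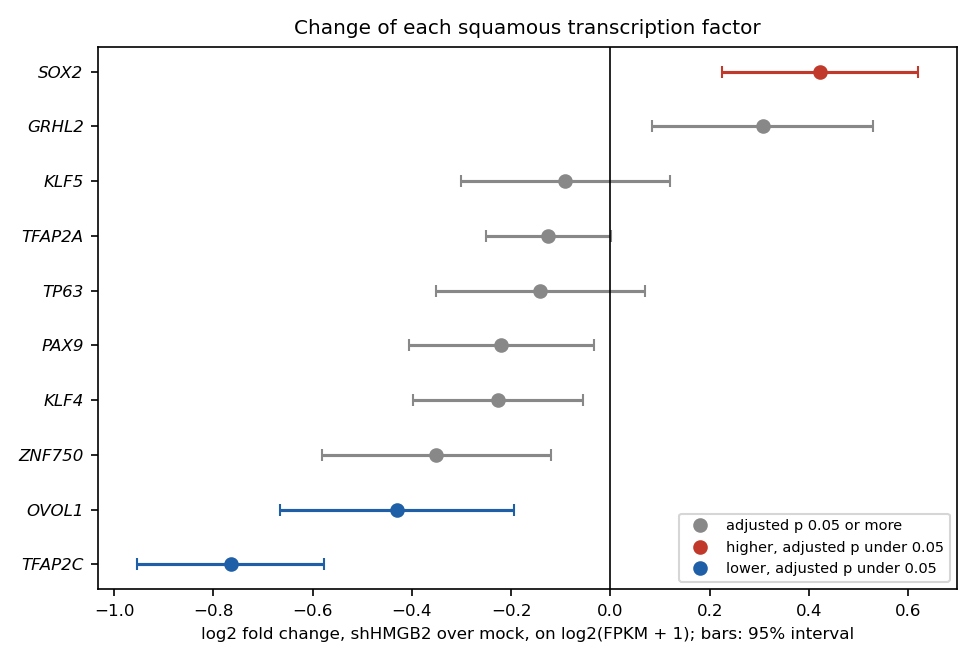
Log2 fold change of each factor (x axis, shHMGB2 over mock on the log2(FPKM + 1) scale) with its 95% interval; rows are the factors in order of change, and colour marks the limma call. SOX2 at 0.42 is the called rise, TFAP2C at -0.77 and OVOL1 at -0.43 are the called falls, and the intervals of KLF5, TFAP2A and TP63 include 0.

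KLF5, which sustains proliferation of basal cells, had 112.0, 108.7 and 119.6 FPKM in the shHMGB2 libraries and 105.9, 133.0 and 125.0 FPKM in the mock libraries. The groups overlapped through mock replicate 1. Its log2 fold change was -0.09 (SE 0.090, 95% interval -0.30 to 0.12, adjusted p = 0.541 by limma).

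GRHL2 had 17.2, 15.1 and 14.8 FPKM in the shHMGB2 libraries and 10.96, 13.2 and 13.4 FPKM in the mock libraries. Each shHMGB2 library was above each mock library, yet the log2 fold change of 0.31 (SE 0.095, 95% interval 0.08 to 0.53) did not pass (adjusted p = 0.0949 by limma). Its relative GRHL1 had 7.23 ± 0.415 FPKM in shHMGB2 and 8.03 ± 0.465 FPKM in mock, and GRHL3, active in the upper epidermis, had 4.89 ± 0.456 FPKM in shHMGB2 and 4.36 ± 0.136 FPKM in mock (SD, n = 3 each). Neither passed (adjusted p = 0.272 by limma for GRHL1 and 0.316 for GRHL3). The ratio of GRHL1 to GRHL2 was 0.462 ± 0.0304 in shHMGB2 and 0.645 ± 0.0527 in mock (SD, n = 3 each; exact permutation p = 0.1, the smallest possible).

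All 3 differentiation factors had lower values in every shHMGB2 library than in any mock library, and OVOL1 was the 1 that passed. Lower values without overlap were also found for PAX9, TFAP2A and TFAP2C, and for 14% of all genes tested. OVOL1, a repressor that stops basal proliferation, had 1.84, 1.33 and 1.54 FPKM in the shHMGB2 libraries and 2.40, 2.34 and 2.62 FPKM in the mock libraries. The groups were apart at a low level. Its log2 fold change was -0.43 (SE 0.10, 95% interval -0.67 to -0.19, adjusted p = 0.0494 by limma). This call lay at the threshold and did not pass when any single library was left out (adjusted p by limma from 0.0691 to 0.157) or with a pseudocount of 0.1 (adjusted p = 0.0543 by limma).

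ZNF750, a target of p63 that promotes differentiation, had 2.38, 2.19 and 1.83 FPKM in the shHMGB2 libraries and 2.72, 3.06 and 3.19 FPKM in the mock libraries. Every shHMGB2 library was below every mock library. Its fitted log2 fold change was -0.35 (SE 0.099, 95% interval -0.58 to -0.12, adjusted p = 0.0758 by limma), and under quantile normalization it passed (adjusted p = 0.0312 by limma). ZNF750 lies on the strand opposite to TBCD, a tubulin cofactor gene, with no annotated exon in common; TBCD had 21.7 ± 1.19 FPKM in shHMGB2 and 18.4 ± 1.47 FPKM in mock (SD, n = 3 each).

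KLF4, which acts in the suprabasal layers, had 44.5, 46.3 and 49.8 FPKM in the shHMGB2 libraries and 53.1, 59.8 and 52.2 FPKM in the mock libraries. The highest shHMGB2 library came close to the lowest mock library. The log2 fold change was -0.23 (SE 0.073, 95% interval -0.40 to -0.05, adjusted p = 0.104 by limma). The ratio of KLF5 to KLF4 was 2.42 ± 0.0873 in shHMGB2 and 2.205 ± 0.1997 in mock (SD, n = 3 each; exact permutation p = 0.2, adjusted p = 0.2). KLF4 also responds fast to serum and handling. Of 17 tested immediate early genes 2 fell (JUNB and MYC) and 0 rose, and the median log2 fold change of the 17 was -0.18. Over all genes tested, 3.45% fell. JUNB did not pass when shHMGB2 replicate 2 or 3 was left out, nor MYC when any shHMGB2 library was (adjusted p by limma from 0.0708 to 0.0827). The part of handling in the KLF4 value was not tested.

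In the authors' deposited table, 7 of the 10 factors had an adjusted p under 0.05, 2 as higher and 5 as lower, where 15.4% of the genes with an adjusted p there did so (6.13% higher and 9.23% lower). These were SOX2 and GRHL2 as higher (adjusted p = 0.00142 and 0.0467 in the authors' deposited table), and TFAP2C, KLF4, PAX9, OVOL1 and ZNF750 as lower. As the factors were chosen with earlier results of these data known, this share is not a test of them. The sign was the same as in the limma fit for all 10. The authors' deposited log2 fold changes were -0.71 for OVOL1 and -0.54 for ZNF750, which are log2 ratios of the 2 deposited group values with no pseudocount.

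Mock replicates 1 and 2 each departed from the other mock libraries for several factors. Mock replicate 1 held the lowest mock value of TP63, PAX9, KLF5, GRHL2 and ZNF750. On the log2(FPKM + 1) scale its difference from the mean of the other mock libraries was -0.30 for TP63, -0.28 for KLF5, -0.26 for GRHL2 and -0.24 for PAX9. The median difference over all tested genes was -0.03, and these 4 lay at percentiles 10.6, 12.7, 15.2 and 16.6 of all genes. Mock replicate 2 held the lowest mock value of SOX2, TFAP2A, TFAP2C and OVOL1. Its differences were -0.21 for SOX2 and -0.16 for TFAP2C, at percentiles 5.4 and 8.4. For KLF5 and PAX9 they were 0.21 and 0.18, at percentiles 92.1 and 89.8. Departures of like rank occurred within the shHMGB2 group. OVOL1 lay at percentile 92.8 in shHMGB2 replicate 1 and 5.7 in replicate 2. SOX2 lay at 91.6 in shHMGB2 replicate 2, and ZNF750 at 7.1 in shHMGB2 replicate 3. Pearson's r of mock replicate 1 with mock replicates 2 and 3 was 0.9865 and 0.9859, and 0.9895 between mock replicates 2 and 3. Between shHMGB2 replicates 1 and 3 it was 0.9854. Without mock replicate 1, 1 factor was higher (SOX2) and 3 were lower (TFAP2C, TP63 and PAX9). Without mock replicate 2, 0 were higher and 1 was lower (TFAP2C).

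**Figure D3:**
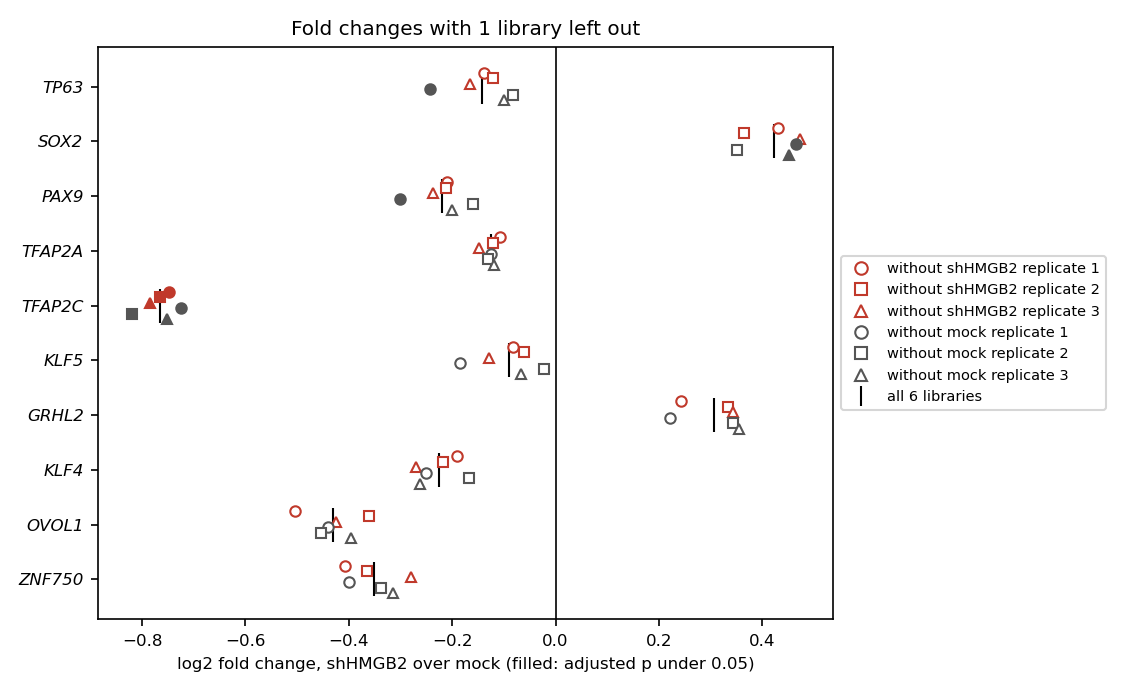
Log2 fold change of each factor (x axis, shHMGB2 over mock) after leaving out each library in turn, with shHMGB2 libraries left out in red and mock libraries in grey; black ticks give the value with all 6 libraries and filled symbols an adjusted p under 0.05. No value crosses 0, TFAP2C passes in all 6 cases, and TP63 and PAX9 pass only without mock replicate 1.

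Relatives of the factors moved in both directions. Of 49 listed genes of the p63, SOX, KLF, AP-2, grainyhead, OVO-like and PAX families, 42 were in the table and 20 reached the minimum level. Of these 20, 2 rose, 3 fell and 15 did not pass, against 3.3% higher and 3.45% lower over all genes tested. The rises were TP73 and SOX6, and SOX6 was tested only through its shHMGB2 level. The median log2 fold change was -0.13. TP73, a relative of TP63, had 2.40 ± 0.215 FPKM in shHMGB2 and 1.48 ± 0.164 FPKM in mock, and rose by a log2 fold change of 0.45 (adjusted p = 0.0356 by limma).

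Within the SOX family, SOX6 rose and SOX15 and SOX7 fell. SOX6, an HMG-box factor without an activation domain, had 2.01, 2.07 and 1.90 FPKM in the shHMGB2 libraries and 0.73, 1.06 and 1.2 FPKM in the mock libraries. Its log2 fold change was 0.59 (SE 0.11, adjusted p = 0.0263 by limma). The shHMGB2 mean was 2.0 times the mock mean, as adding 1 to FPKM shrinks log2 fold changes at low levels. The SOX6 mean was 0.997 FPKM in mock, under the minimum level, so SOX6 entered the test through its shHMGB2 values. SOX15, found in stratified epithelium, had 23.3, 20.4 and 19.6 FPKM in the shHMGB2 libraries and 29.1, 27.5 and 27.1 FPKM in the mock libraries, a log2 fold change of -0.39 (SE 0.076, adjusted p = 0.0281 by limma). SOX7 fell by 0.39 on the log2 scale (adjusted p = 0.0427 by limma). The closest SOX2 relative at a sizeable level, SOX21, had 17.8 ± 0.854 FPKM in shHMGB2 and 15.5 ± 0.749 FPKM in mock without passing (adjusted p = 0.119 by limma). Among KLF genes KLF16 fell by 0.30 (adjusted p = 0.021 by limma), and KLF10, at 46.4 ± 2.17 FPKM in shHMGB2 and 54.7 ± 2.05 FPKM in mock, did not pass (adjusted p = 0.0599 by limma). OVOL2 had 3.90 ± 0.226 FPKM in shHMGB2 and 4.403 ± 0.164 FPKM in mock, and the ratio of OVOL1 to OVOL2 was 0.406 ± 0.0904 in shHMGB2 and 0.558 ± 0.0415 in mock (SD, n = 3 each; exact permutation p = 0.1, the smallest possible). TFAP2B and TFAP2E had means under 1 FPKM, as had all 7 other PAX genes in the table. These 5 called relatives were less stable than TFAP2C: TP73 and SOX7 lost their call when any single library except mock replicate 1 was left out, SOX15 when any except mock replicate 3 or shHMGB2 replicate 1 was, and SOX6 and KLF16 when mock replicate 2 or any shHMGB2 library was (adjusted p by limma from 0.0574 to 0.1375).

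**Figure D4:**
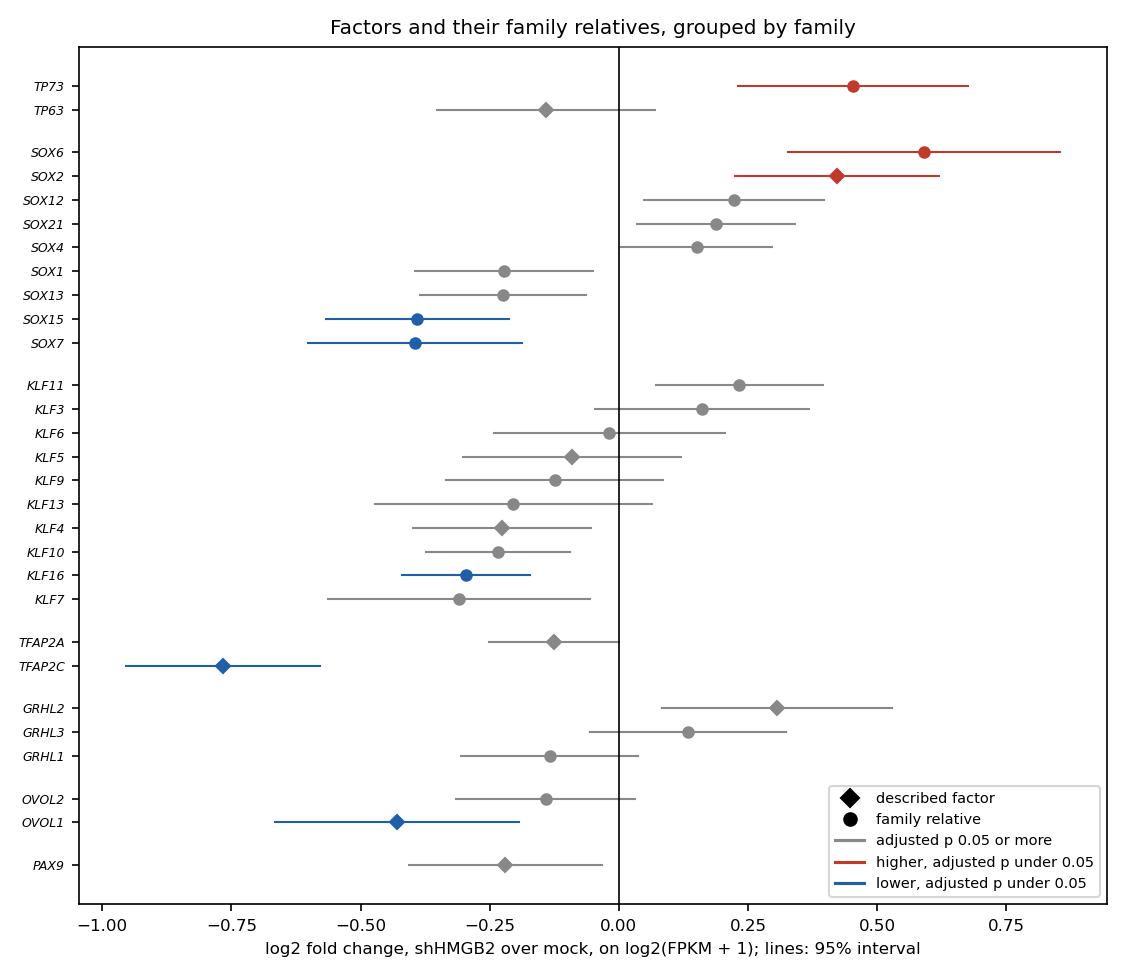
Log2 fold change (x axis, shHMGB2 over mock) with its 95% interval for the factors (diamonds) and their tested family relatives (circles), grouped by family down the page; red and blue mark adjusted p under 0.05. TP73 is higher while the interval of TP63 includes 0, and SOX2 and SOX6 are higher while SOX15 and SOX7 are lower.

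Among 30 tested regulators of squamous and epidermal cells other than the factors above, 0 rose, 2 fell and 28 did not pass in limma. The median log2 fold change was 0.03. The unadjusted p was under 0.05 for 7 higher and 6 lower genes. Over all genes tested, 6.75% passed in either direction and 27.9% had an unadjusted p under 0.05. CEBPB, which promotes keratinocyte differentiation, had 79.3 ± 4.02 FPKM in shHMGB2 and 104.0 ± 9.16 FPKM in mock (SD, n = 3 each; adjusted p = 0.0321 by limma). BARX2, a homeobox gene, had 6.11 ± 0.417 FPKM in shHMGB2 and 8.05 ± 0.623 FPKM in mock (SD, n = 3 each; adjusted p = 0.0494 by limma). Both lost their call when any single library except mock replicate 3 was left out (adjusted p by limma from 0.0659 to 0.162).

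Among p63 targets and basal genes, falls outnumbered rises and most genes did not pass. Of 29 tested, 1 rose, 9 fell and 19 did not pass, against 3.3% higher and 3.45% lower over all genes tested. The median log2 fold change of the 29 was -0.03. PTHLH, the parathyroid hormone-like hormone, had 82.9 ± 3.33 FPKM in shHMGB2 and 146 ± 3.61 FPKM in mock (log2 fold change -0.81, adjusted p = 0.000801 by limma). S100A2, a calcium-binding protein of basal cells, had 878 ± 68.6 FPKM in shHMGB2 and 1464 ± 84.6 FPKM in mock (log2 fold change -0.74, adjusted p = 0.00335 by limma). KRT14, the basal keratin that pairs with KRT5, fell by 0.55 on the log2 scale (adjusted p = 0.00532 by limma), while KRT5 itself had 3504 ± 329 FPKM in shHMGB2 and 3376 ± 77.4 FPKM in mock (adjusted p = 0.729 by limma; SD, n = 3 each). FAT2, a protocadherin, was the 1 that rose, and it did not pass without mock replicate 2 or shHMGB2 replicate 1 or 2 (adjusted p by limma from 0.0619 to 0.0684).

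Many genes of late differentiation, the programme that KLF4, ZNF750 and grainyhead factors promote, were lower; the list was chosen with earlier results of these data known. Of 38 in the table, 22 were tested, and 10 fell, 1 rose and 11 did not pass. Over all genes tested, 3.45% fell and 3.3% rose. The median log2 fold change of the 22 was -0.43. SPRR3, a cornified envelope precursor, had 20.5, 18.4 and 21.6 FPKM in the shHMGB2 libraries and 36.4, 37.1 and 37.5 FPKM in the mock libraries. SERPINB1, a protease inhibitor, had 39.1 ± 1.75 FPKM in shHMGB2 and 69.9 ± 5.91 FPKM in mock, and the suprabasal keratin KRT10 had 4.37 ± 0.324 FPKM in shHMGB2 and 6.19 ± 0.552 FPKM in mock (SD, n = 3 each). The keratin KRT13, at a far higher level, had 999.6 ± 31.8 FPKM in shHMGB2 and 1062 ± 94.7 FPKM in mock (SD, n = 3 each; adjusted p = 0.512 by limma). The keratin KRT4 did not pass either (adjusted p = 0.115 by limma). The log2 fold changes of PPL and EVPL, also not called, were -0.01 and 0.01. Of the 10 falls, 6 are SPRR genes, whose sequences are similar, so reads could be split between near-identical members. DSC2, a desmosomal cadherin, was the 1 that rose, with 6.62 ± 0.246 FPKM in shHMGB2 and 4.62 ± 0.755 FPKM in mock (SD, n = 3 each), and it lost its call when any library except mock replicate 3 was left out and under median-of-ratios scaling. Involucrin (IVL), loricrin (LORICRIN) and filaggrin (FLG) were below the minimum level. The count of falls was 5 without mock replicate 2 or shHMGB2 replicate 2 or 3, and 6 without shHMGB2 replicate 1.

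Genes opposed or supported by OVOL1 and GRHL2 mostly did not pass, as was so for all genes tested, of which 6.75% passed. Of 7 tested transcription factors of epithelial to mesenchymal transition, 0 passed in limma, 1 had an unadjusted p under 0.05 as higher and 2 as lower, and the median log2 fold change was -0.13. SNAI1 had 1.79 ± 0.0902 FPKM in shHMGB2 and 2.41 ± 0.246 FPKM in mock (SD, n = 3 each; adjusted p = 0.0978 by limma), and ZEB1, a target of OVOL repression, was under 0.1 FPKM in both groups. Of 22 tested epithelial identity genes, 2 rose, 2 fell and 18 did not pass. The median log2 fold change was -0.05. ERBB3, a receptor kinase and GRHL2 target, had 14.9 ± 0.601 FPKM in shHMGB2 and 9.70 ± 0.549 FPKM in mock (SD, n = 3 each; log2 fold change 0.57, adjusted p = 0.00438 by limma). CDS1, an enzyme of phospholipid synthesis, rose by 0.44 (adjusted p = 0.0167 by limma), and the tight junction gene CLDN1 fell by 0.39 (adjusted p = 0.0116 by limma). CDS1 did not pass without mock replicate 2 or shHMGB2 replicate 2 or 3, nor CLDN1 without mock replicate 2 or any shHMGB2 library (adjusted p by limma from 0.05325 to 0.07302). E-cadherin (CDH1) had 90.5 ± 3.56 FPKM in shHMGB2 and 79.4 ± 5.79 FPKM in mock (SD, n = 3 each; adjusted p = 0.132 by limma).

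Markers of other lineages were read beside these results. Over all genes tested, 3.3% were higher and 3.45% lower. Of 7 tested columnar and glandular genes, 2 fell and 0 rose, with a median log2 fold change of -0.16. FOXA2, an endodermal forkhead factor, had 8.46, 8.62 and 9.11 FPKM in the shHMGB2 libraries and 15.6, 18.8 and 16.4 FPKM in the mock libraries (log2 fold change -0.88, adjusted p = 0.00163 by limma). KRT18, a keratin of simple epithelium, fell by 0.43 (adjusted p = 0.0112 by limma), a call lost when mock replicate 2 or any shHMGB2 library was left out (adjusted p by limma from 0.0503 to 0.0613). Of the 14 squamous markers, 6 fell, 0 rose and 8 did not pass, and their median log2 fold change was -0.08. All of these falls except KRT16 were already counted among the p63 targets and basal genes, so they are not a separate observation. KRT16, a keratin of activated epithelium, had 5.51 ± 0.144 FPKM in shHMGB2 and 10.4 ± 0.618 FPKM in mock (SD, n = 3 each). The summed level of the 20 measured columnar genes was 1446 to 1511 FPKM in shHMGB2 and 1652 to 1873 FPKM in mock, and that of the 14 squamous markers 8022 to 8651 FPKM in shHMGB2 and 9639 to 10190 FPKM in mock. The columnar sum was mostly 2 keratins. KRT8 had a mean of 931 FPKM in shHMGB2 and 1030 FPKM in mock (adjusted p = 0.224 by limma), and KRT18 had 512 and 693 FPKM. Of the 20 genes, 7 had a mean of at least 1 FPKM. Of 13 measured neural and melanocyte genes, 3 were tested and TUBB3 fell, without passing when any single library was left out (adjusted p by limma from 0.0507 to 0.125). Summed levels were 4.00 to 4.46 FPKM in shHMGB2 and 2.96 to 3.70 FPKM in mock for fibroblast markers, 4.64 to 5.14 FPKM in shHMGB2 and 7.04 to 7.88 FPKM in mock for leukocyte markers, and 2.39 to 2.88 FPKM in shHMGB2 and 1.95 to 2.61 FPKM in mock for endothelial markers. CD68, the 1 tested leukocyte marker, fell by 0.61 on the log2 scale (adjusted p = 0.00454 by limma), and LUM and ERG did not pass. The part of other cells in the factors' values was not tested.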

How the data were processed

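RNA-seq of KYSE450 cells (3 shHMGB2 and 3 mock libraries) was analysed from 1 deposited table. Per the labels' protocols, RNA came from Trizol extracts and an mRNA kit gave the libraries. The submitters' processing notes list Bowtie2 2.2.5, RSEM 1.2.12 and hg38, and give none of them a step. The authors deposited FPKM per library, per the file headers, and a normalized signal per group. Their deposited log2 fold change, p-value and adjusted p-value are of an unnamed test. Since FPKM are not read counts, log2(FPKM + 1) of genes whose mean reached 1 FPKM went into limma 3.58.1 (R 4.3.3), with no covariate beside group, variances moderated along a mean-variance trend, and 2-sided Benjamini-Hochberg adjusted p. On simulated libraries for shHMGB2 against mock (13171 genes), limma called 94 of 100 genes shifted by 1 on the log2 scale and 55 of 100 shifted by 0.5, with 12 false calls. Noise was drawn separately for each gene and library. Deviations shared by many genes of a library were thus not simulated, and the false calls do not cover them. The shifted genes were drawn from those with a mock mean above 3 on the log2(FPKM + 1) scale. These rates do not cover genes below that level, among them TFAP2C, OVOL1, ZNF750, TP73, SOX6, SOX7, KRT10, DSC2 and TUBB3.

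Named genes are the 10 factors, HMGB2, in each list the 3 called genes with the largest change or else the gene with the smallest p, family relatives and overlapping genes. KRT4, KRT5, KRT8, KRT10, KRT13, PPL, EVPL, EPCAM, DSC2, IVL, LORICRIN, FLG, ZEB1 and CDH1 were named after their values were seen. The factors and lists were chosen with earlier results of these data known, and the list of late differentiation genes holds genes that those results had shown to be lower. Lists are described by counts and medians, with no set test, and leave out a few genes that are not reported here. Gene positions are from RefSeq and transcripts from GENCODE 29, both on GRCh38. Alternatives covered the pseudocount, the filter, 3 scalings, the trend, library weights, a replicate block and leaving out 1 library at a time.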

Additional observations from a re-analysis of the deposited data

How the results depend on the processing

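The direction of all 10 factors was the same in each of 147 combinations of factor and alternative setting, of which 123 also stayed on the same side of the threshold, 15 lost and 9 gained a call. HMGB2 kept its direction and passed throughout. The factors called as higher numbered 1 with all libraries, 0 without a filter on low values, 2 with library weights, 0 with the replicate block and 0 to 1 with each library left out. Those called as lower numbered 2 with all libraries, 1 with a pseudocount of 0.1, 1 without a filter, 0 with a minimum of 5 FPKM (which removed TFAP2C, OVOL1 and ZNF750 from the test), 7 with library weights, 1 with the replicate block and 1 to 3 with each library left out. Over all genes, higher and lower calls numbered 442 and 463 with all libraries, 167 and 245 without a filter, 2436 and 1758 with library weights, 138 and 234 with the replicate block, and 97 to 449 and 193 to 446 with each library left out. Without mock replicate 1 they numbered 358 and 446, and without mock replicate 3 they numbered 449 and 424. More genes were tested without a filter, and fewer samples were used when a library was left out. The cause of these shifts was not tested. Library weights gave calls for TP63, PAX9, KLF5, GRHL2, KLF4 and ZNF750 that no equal-weight fit of all libraries gave, except ZNF750 under quantile normalization. Same-numbered libraries did not deviate together (r = -0.0116, -0.0377 and -0.0959 for replicates 1, 2 and 3), so the numbers are not taken as pairs; under the replicate block SOX2 had a limma adjusted p of 0.0868 and OVOL1 of 0.102. The scalings moved the median of all genes by at most 0.03 log2 units. Of 240 list counts under alternatives, 71 moved by over 1.5 times. With a pseudocount of 0.1 the log2 fold changes of the low factors were -0.95 for TFAP2C, -0.62 for OVOL1 and -0.47 for ZNF750.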
